A study of Homo sapiens with 183 samples.

Results

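H1048 is an established human small-cell lung cancer line of the POU2F3 (P) subtype, which resembles the tuft cell, and these cells were read after 24 h with CB-6644 or with its solvent DMSO. CB-6644 is an allosteric inhibitor of the ATPase of RUVBL1/2, a ring of the paired AAA+ proteins RUVBL1 and RUVBL2. The libraries were all those of parental H1048 cells in the table of non-pancreatic lines, 4 with CB-6644 and 4 with DMSO, 8 of 183 in the series. The unit is TPM, the share of a gene's transcripts in a library, corrected for length and scaled to a total of 1e+06. A gene was kept where its mean over the 8 libraries reached 1 TPM, which left 13715 of the 19875 names in the table. In both groups the genotype was parental and the labels give the same batch, so treatment was the only labelled difference. The other libraries of this table, used here for comparison, were from parental T84 colorectal cancer, A-375 melanoma and RH30 rhabdomyosarcoma cells, each with 4 CB-6644 and 4 DMSO libraries at 24 h. H1048 is 1 line, so it stands for itself and not for all small-cell lung cancers of its subtype.

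Tuft cells are rare chemosensory cells of the airway and gut lining. The POU-domain factor POU2F3 specifies them together with its coactivators POU2AF2 and POU2AF3, and they carry a taste-type signalling chain, phospholipases, immune-type kinases and enzymes that make leukotrienes. RUVBL1/2 assembles large protein complexes, serves in the INO80, SRCAP and TIP60 chromatin remodellers and, as part of R2TP, helps build RNA polymerase II and the PIKK kinases. The question that the comparison addresses is which transcripts, and in particular which lineage genes, change after 24 h with this inhibitor in a tuft cell-like cancer line. Direct and later effects of the inhibitor cannot be told apart here.

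The label was first set against marker genes in the DMSO libraries. POU2F3 was at 476 ± 21.1 TPM (SD, n = 4), POU2AF2 at 168 ± 5.67, POU2AF3 at 576 ± 13.8 and AVIL, an actin-binding protein of tuft cells, at 139.9 ± 2.56. Of the 48 genes in 4 lists of tuft cell genes, 38 reached a mean of 1 TPM, ALOX5AP just inside this limit at 1.14 and PIK3R5 just outside it at 0.916. The tuft channel TRPM5 did not, at 0.0501, 0.182, 0 and 0.0764 TPM in the DMSO libraries and 0.0643, 0.1503, 0 and 0.134 in the CB-6644 libraries, and the tuft cytokine IL25 was listed at 0 in each DMSO library. Of 18 neuroendocrine markers, 12 were under 1 TPM, among them the defining factor NEUROD1, listed at 0 in all 4 DMSO libraries. The neuroendocrine list summed to between 1808 and 1902 TPM in the DMSO libraries, nearly all of it UCHL1, a neuronal deubiquitinase that many cancer lines express (1785 ± 40.1 TPM). Markers of the other lines were low, with sums over 8 genes each of 10.0 to 14.4 TPM for melanoma, 7.40 to 8.76 for colorectal and 1.76 to 4.41 for skeletal muscle cells over the 8 libraries. The 10 haematopoietic and stromal markers summed to between 26.3 and 30.7 TPM with DMSO and between 39.8 and 47.8 with CB-6644. ALB, described below, is one of them, and their part in the results was not tested.

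TPM keeps no read depth, so depth is unknown here. As a stand-in, genes that reached 1 TPM were counted, and there were 13181 to 13270 in the DMSO libraries and 13941 to 14024 in the CB-6644 libraries, and the 100 most abundant genes took 25.7 to 26.1% and 23.0 to 23.6% of the TPM. Library pairs within a group had a median absolute difference of 0.062 to 0.103 on the log2(TPM + 1) scale, against 0.32 to 0.34 for pairs across the groups. No source used here says whether the 4 libraries came from separate cultures, so p-values measure only the spread between libraries, which may be technical. In RNA from a whole culture, fewer cells of one kind and less RNA per cell cannot be told apart.

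Gene by gene, CB-6644 was compared with DMSO by limma on log2(TPM + 1), with p-values adjusted by the Benjamini-Hochberg method over all 13715 genes and a threshold of 0.05. With libraries this alike within a group, 10685 genes (77.9%) passed, 7391 (53.9%) higher and 3294 (24.0%) lower with CB-6644. A change of at least 1.5 times, a size set after the data were seen, left 2479 higher (18.1%) and 702 lower (5.12%). Every CB-6644 library was above every DMSO library for 6806 genes and below for 2974, and the groups overlapped for 3935. Groups without overlap, as reported for single genes below, were therefore the usual outcome. Over all genes tested the log2 fold change had a median of 0.18. When libraries were rescaled by the median of ratios instead, the median was -0.02 and the split of calls turned from 69.2% to 46.9% higher. All 3294 lower calls stayed lower on that scale, and 4834 of the 7391 higher calls (35.2% of genes tested) stayed higher. Counts of a list below are to be set beside these shares of all genes: 53.9% called higher, 35.2% higher on both scales and 24.0% lower. Below, "rose" and "fell" are used only of genes called on both scales, fold changes are on the TPM scale with the median of 0.18 as their reference, and every adjusted p-value of a gene is from this limma fit unless the comparison of lines is named.

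**Figure D1:**
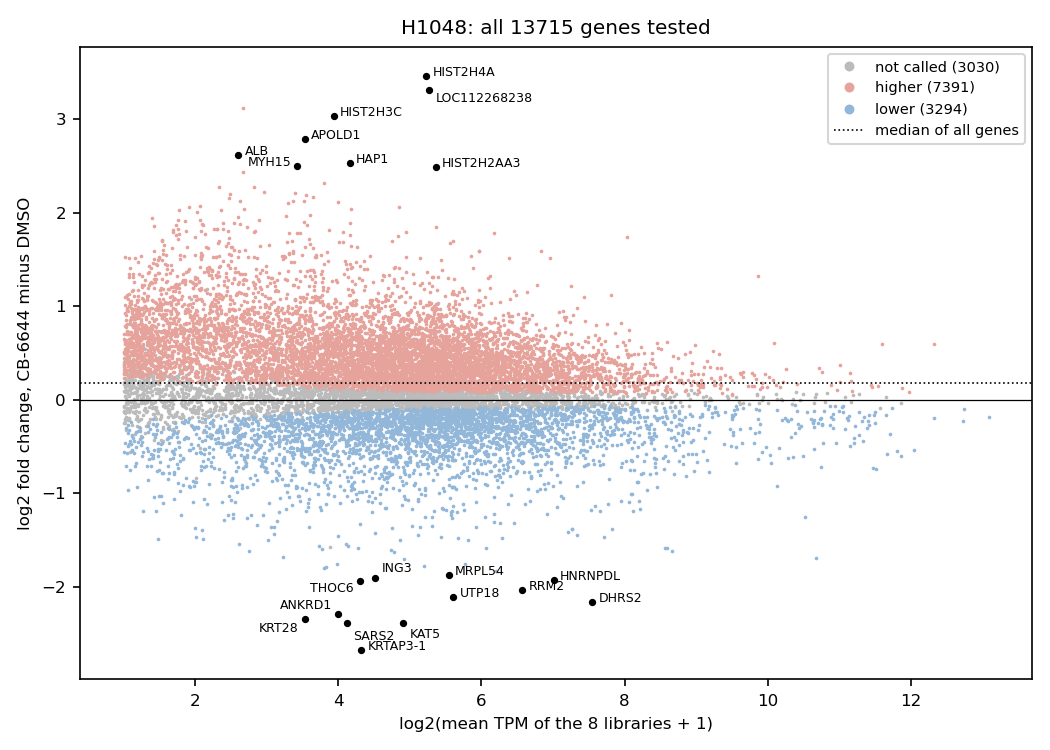
Log2 fold change (CB-6644 minus DMSO) of each of the 13715 genes tested in H1048 against log2 of its mean TPM plus 1, with genes called higher in red, called lower in blue and not called in grey. The dotted line is the median of all genes, 0.18; the largest rises and falls that the text describes are named, with one name for each pair of identical histone copies.

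The tuft regulators fell together. Of 12 transcription factors and coactivators listed, all 12 were tested, 10 fell, 9 of them by at least 1.5 times, and 1 rose, with a list median of -0.68 against 0.18 for all genes. POU2F3 read 483, 501, 452 and 469 TPM in the DMSO libraries and 298, 307, 312 and 293 TPM in the CB-6644 libraries, with no overlap, a log2 fold change of -0.65 (SE 0.0345, adjusted p = 7.99e-09). Its coactivator POU2AF2, listed in the table as C11orf53, read 166, 177, 164 and 168 TPM with DMSO and 92, 95.04, 101 and 97.4 TPM with CB-6644, a log2 fold change of -0.80 (SE 0.0356, adjusted p = 2.01e-09). Every treated library was again below every control. The second coactivator, POU2AF3 (COLCA2 in the table), was the more abundant at 582, 587, 556 and 579.7 TPM with DMSO and 487, 473, 473 and 479 TPM with CB-6644. Its fall was the smallest of the group, -0.27 (SE 0.0256, adjusted p = 1.17e-06) on the log2 scale.

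The homeobox and forkhead factors moved most. HMX2, a homeobox factor, read 61.5, 58.8, 58.1 and 59.1 TPM with DMSO and 27.8, 25.7, 24.8 and 25.97 TPM with CB-6644, a log2 fold change of -1.16 (SE 0.0416, adjusted p = 4e-10). Its neighbour and paralog HMX3 read 73.8, 69.5, 68.9 and 72.3 TPM with DMSO and 38.6, 37.1, 37.7 and 34.7 TPM with CB-6644, -0.92 (SE 0.0407, adjusted p = 1.93e-09) on the log2 scale. FOXI1, the forkhead factor that specifies ionocytes, read 31.4, 32.8, 33.02 and 29.4 TPM with DMSO and 15.6, 13.3, 12.9 and 14.9 TPM with CB-6644, -1.11 (SE 0.0636, adjusted p = 1.5e-08) on the log2 scale. For each of the 3 factors the highest treated library was below the lowest control library.

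SOX9, a progenitor factor, fell from 213 ± 4.75 to 129.7 ± 4.45 TPM (SD, n = 4), GFI1B, a zinc finger repressor shared with blood cells, from 86.8 ± 4.15 to 57.6 ± 5.17, MYB from 30.03 ± 1.198 to 17.6 ± 1.75 and ASCL2, a basic helix-loop-helix factor, from 8.002 ± 1.14 to 4.796 ± 0.656. Their log2 fold changes were -0.71, -0.58, -0.74 and -0.63, and the groups did not overlap in any of them. POU2AF1, the B cell coactivator of the same family, was the one that rose, from 2.502, 1.72, 2.499 and 2.46 TPM with DMSO to 3.9, 4.35, 4.72 and 5.101 TPM with CB-6644, 0.75 (SE 0.105, adjusted p = 3.51e-05) on the log2 scale at a low level. SPIB, an ETS factor, was not called, at 2.27 ± 0.319 TPM with DMSO and 2.73 ± 0.509 TPM with CB-6644.

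**Figure D2:**
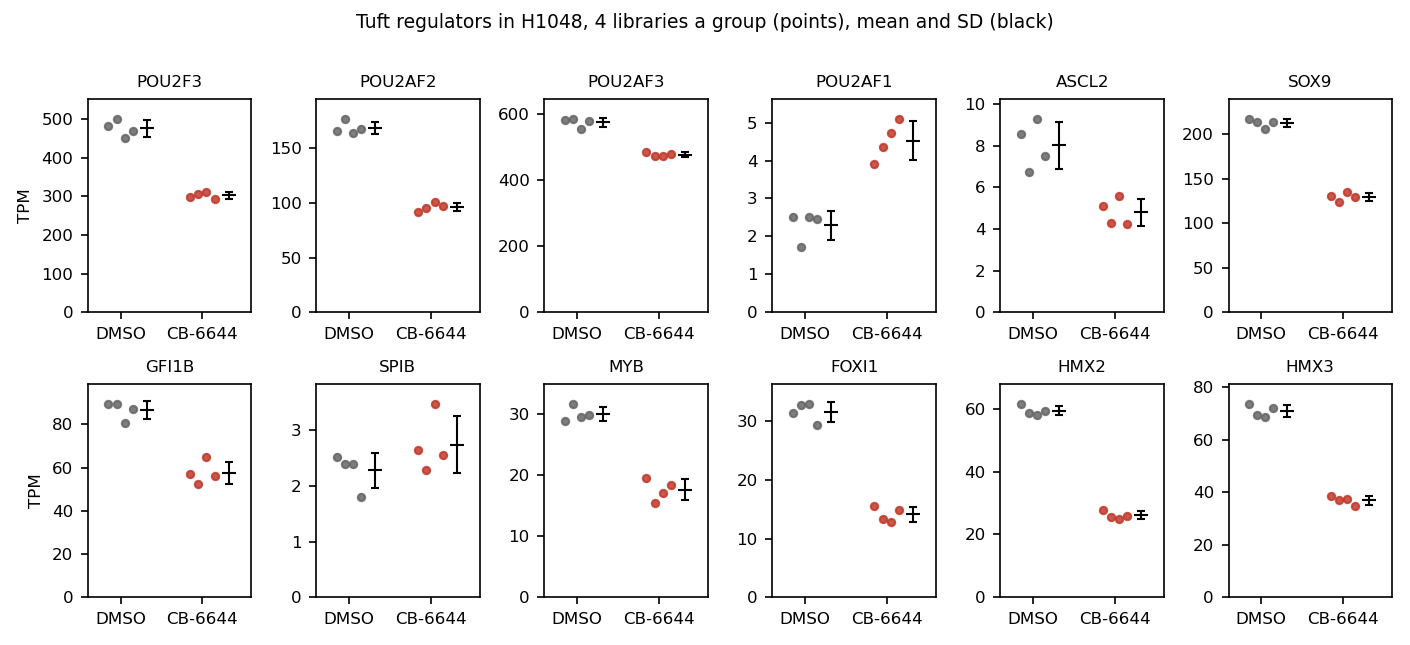
TPM of the 12 tuft regulators in each H1048 library, with 4 DMSO libraries in grey and 4 CB-6644 libraries in red; black marks are the mean and SD, and each panel starts at 0. The groups are apart in 11 panels, 10 with CB-6644 lower and POU2AF1 with CB-6644 higher, and overlap for SPIB.

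Among the tuft regulators, HMX2 holds the octamer in its promoter, as do the signalling genes SUCNR1 and BMX, and these 3 are shown because the octamer is the DNA word that POU-domain factors such as POU2F3 are known to bind. The windows run from 250 bases before to 50 bases after the transcription start, on the gene's strand, and come from RefSeq on GRCh38.p14. The word searched was ATGCAAAT on both strands, in capitals here. The HMX2 window is chr10:123147886-123148185, the SUCNR1 window chr3:151873393-151873692 and the BMX window chrX:15507058-15507357, all on the plus strand.
HMX2: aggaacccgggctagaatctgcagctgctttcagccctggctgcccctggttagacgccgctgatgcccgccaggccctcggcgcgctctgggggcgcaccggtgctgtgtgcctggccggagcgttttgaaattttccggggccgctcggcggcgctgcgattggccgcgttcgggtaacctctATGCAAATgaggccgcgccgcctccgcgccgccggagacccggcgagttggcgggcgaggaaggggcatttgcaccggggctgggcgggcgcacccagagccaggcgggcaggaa
SUCNR1: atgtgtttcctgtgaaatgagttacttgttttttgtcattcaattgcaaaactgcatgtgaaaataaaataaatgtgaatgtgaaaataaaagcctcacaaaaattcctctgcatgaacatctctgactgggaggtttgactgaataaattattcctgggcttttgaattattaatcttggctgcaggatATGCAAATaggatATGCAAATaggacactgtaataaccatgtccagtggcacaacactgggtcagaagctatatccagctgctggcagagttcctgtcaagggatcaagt
BMX: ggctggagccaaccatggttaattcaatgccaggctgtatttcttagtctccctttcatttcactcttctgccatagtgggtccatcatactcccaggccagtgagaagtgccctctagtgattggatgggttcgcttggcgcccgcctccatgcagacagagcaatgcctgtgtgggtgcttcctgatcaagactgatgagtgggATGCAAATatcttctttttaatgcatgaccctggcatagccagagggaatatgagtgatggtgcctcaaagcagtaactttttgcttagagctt
The copy starts at position -65 from the transcription start in HMX2 and -44 in BMX, and SUCNR1 holds 2 copies, at -60 and -47. Of the 24 tuft-list genes that fell, 19 had a window in the RefSeq table and 3 of these hold the word. Of all 33 tuft-list genes with a window 4 hold it, so 1 of those that did not fall does too. Among all windows listed there, 623 of 35116 (1.77%) hold the word. That share counts windows and not genes, so it cannot be set directly against the gene counts. Whether the word goes with the fall was not tested. A match is a description of the letters and not a measured binding site.

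Tuft signalling genes were divided. Of 24 listed, 17 were tested, 9 fell, 2 were called higher and 6 were not called, with a median of -0.10. The largest fall was that of RGS13, a regulator of G protein signalling, which read 215, 199.7, 239.9 and 229.9 TPM with DMSO and 82.4, 87.9, 85.9 and 80.9 TPM with CB-6644, -1.38 (SE 0.0516, adjusted p = 5.4e-10) on the log2 scale. GNAT3, the taste G protein gustducin, read 39.8, 45.02, 37.5 and 43.7 TPM with DMSO and 20.1, 15.8, 21.2 and 19.8 TPM with CB-6644, -1.08 (SE 0.0839, adjusted p = 1.92e-07) on the log2 scale. PIK3CG, the catalytic subunit of a G protein-coupled PI3 kinase, read 35.9, 36.8, 35.6 and 36.9 TPM with DMSO and 19.99, 21.4, 19.7 and 19.1 TPM with CB-6644, -0.82 (SE 0.0429, adjusted p = 7e-09). None of the 3 overlapped between groups.

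The kinase and receptor members fell less. MATK, a kinase related to CSK, went from 38.5 ± 1.92 to 25.8 ± 2.01 TPM, SUCNR1, the succinate receptor, from 21.6 ± 0.758 to 15.5 ± 0.245, PLCG2, a phospholipase, from 24.1 ± 0.859 to 17.8 ± 0.411, DCLK1, a doublecortin-like kinase long used as a tuft marker, from 6.07 ± 0.414 to 4.49 ± 0.415 and BMX, a TEC family kinase, from 30.6 ± 1.85 to 23.8 ± 1.26. Log2 fold changes of these 5 ran from -0.56 for MATK to -0.35 for BMX. KIT, the stem cell factor receptor, changed least of those called, 147, 147, 153 and 155 TPM with DMSO and 133, 147, 140.3 and 138 TPM with CB-6644, -0.10 (SE 0.0342, adjusted p = 0.0139), and its call was lost without CB-6644 replicate 1 (log2 fold change -0.08). SH2D6, an adaptor of unsettled function, rose from 9.46 ± 0.765 to 19.8 ± 1.897 TPM, 0.99 (SE 0.0732, adjusted p = 1.18e-07). SH2D7, called higher by 0.34, was not called after rescaling (0.17) or without any one of CB-6644 replicates 2 and 3 and DMSO replicate 3 (0.27 to 0.29).

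IL17RB, the receptor chain for IL-25, was not called, at 108, 105, 108 and 109.5 TPM with DMSO and 109, 113, 106 and 115 TPM with CB-6644, and the groups overlapped. Its log2 fold change of 0.04 turned to -0.17 after rescaling, where it was called lower. VAV1, an exchange factor of immune cells, likewise read 0.04 on the TPM scale and -0.17 after rescaling. GNB3 (-0.01), ITPR2 (-0.01) and HTR3E (0.19) were not called either, and GNB3 and ITPR2 were called lower after rescaling. HTR3E was called higher without CB-6644 replicate 3 (0.23) or DMSO replicate 4 (0.24).

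Eicosanoid genes did not share a direction. ALOX5, the 5-lipoxygenase that starts leukotriene synthesis, was abundant and nearly level at 214, 218, 209.8 and 209.9 TPM with DMSO and 234, 224, 234 and 229 TPM with CB-6644; its log2 fold change of 0.11 (SE 0.0268, adjusted p = 0.00213) turned to -0.10 after rescaling. Its partner ALOX5AP was low, 1.34, 1.78, 1.93 and 0.896 TPM with DMSO and 1.19, 1.12, 0.348 and 0.545 TPM with CB-6644 with overlapping groups, -0.47 (SE 0.183, adjusted p = 0.0312), and lost its call without any one of 4 libraries. LTC4S, leukotriene C4 synthase, was called higher at 2.43, 1.87, 2.17 and 2.48 TPM with DMSO against 4.65, 6.21, 1.92 and 5.13 TPM with CB-6644, 0.69 (SE 0.221, adjusted p = 0.0128), also with overlapping groups. PTGS1 and HPGDS, which lead to prostaglandin D2, were under 1 TPM.

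Of the cytoskeletal tuft genes 6 were tested and 4 fell. IRAG2 (LRMP in the table), an endoplasmic reticulum protein, read 377, 366, 396 and 386 TPM with DMSO and 274, 282, 268 and 280.5 TPM with CB-6644, -0.46 (SE 0.0304, adjusted p = 4.44e-08) on the log2 scale. The keratins KRT18 and KRT8 of simple epithelia read 629.8 ± 28.3 and 502 ± 10.3 TPM with DMSO and 398 ± 24.3 and 386 ± 14.9 with CB-6644, log2 fold changes of -0.66 and -0.38. AVIL fell to 96.4 ± 1.496 TPM (-0.53), ANXA4, a calcium-dependent annexin, rose by 0.39, and ESPN, an actin bundler, was not called (-0.03). Over the 4 lists 24 of 38 genes tested fell (background 24.0%), 6 were called higher, 4 of them on both scales, and the median was -0.40, or -0.59 after rescaling.

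A wider list, the public signature of human duodenal tuft cells, held genes of both directions. Of 79 genes, 76 had a value and 63 were tested. Of these 30 fell and 23 were called higher, 11 of them on both scales, and the median was -0.02. Over all genes 24.0% fell, 53.9% were called higher and 35.2% rose on both scales, so falls were more frequent and rises less frequent in the signature. The signature shares 18 genes with the 4 lists, and among the remaining 45 genes 19 fell and 21 were called higher, or 23 and 10 after rescaling. The study tested this signature on these same libraries by gene set enrichment. It reported lineage marker signatures as suppressed by CB-6644 in this model. The largest falls were TMEM176B, a membrane protein, from 5.38 ± 0.66 to 1.28 ± 0.387 TPM, and FYB1, an immune-cell adaptor, which read 5.24, 4.72, 4.46 and 5.198 TPM with DMSO and 1.17, 0.969, 1.26 and 1.16 TPM with CB-6644 (-1.46, SE 0.0858, adjusted p = 1.76e-08). SH2D6 and IFI6, an interferon-induced protein (20.3 ± 2.35 to 35.5 ± 7.83 TPM), rose most.

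Whether the tuft genes responded differently here than in other cells was tested in 1 limma fit over the 32 libraries of the 4 lines, as the H1048 effect minus the mean effect in T84, A-375 and RH30. Over all genes the H1048 effect was above that mean for 4098 genes (29.9%) and below it for 3317 (24.2%). Of the 38 tuft-list genes it was below for 21 and above for 3. No control library is shared between lines. A limit of this comparison is that 18 of the 38 genes had a mean under 1 TPM in the DMSO libraries of all 3 other lines, a level at which the log2(TPM + 1) scale leaves little room for a fall, and 8 had at least 1 TPM in all 3.

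POU2F3 was close to that floor in the other lines. It changed by -0.18 in T84, 0.78 in A-375 and 0.09 in RH30, from DMSO means of 1.32, 0.517 and 0.0636 TPM, and the H1048 effect differed by -0.88 (adjusted p = 1.49e-09). For HMX2 the difference was -1.18 (adjusted p = 1.04e-13), for RGS13 -1.36 (adjusted p = 6.02e-17) and for PIK3CG -0.94 (adjusted p = 4.52e-15). In the other lines the DMSO means of these genes were at most 0.142 TPM (HMX2 in A-375), so they could hardly fall there. Their differences are therefore mostly the H1048 effects alone. Where the other lines did express the gene the outcome varied. SOX9 changed by -0.14 in T84, -0.82 in A-375 and -0.86 in RH30, and a difference of H1048 was not shown (-0.10, adjusted p = 0.151). AVIL changed by 1.39 in T84, 0.56 in A-375 and -0.47 in RH30 from DMSO means of 2.24, 0.997 and 31.0 TPM, and the H1048 fall differed by -1.02 (adjusted p = 4.99e-10). MYB, at 55.5 TPM in T84 with DMSO, changed by -1.61 in T84, -0.50 in A-375 and 0.04 in RH30, and the difference was -0.05 (adjusted p = 0.685).

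**Figure D3:**
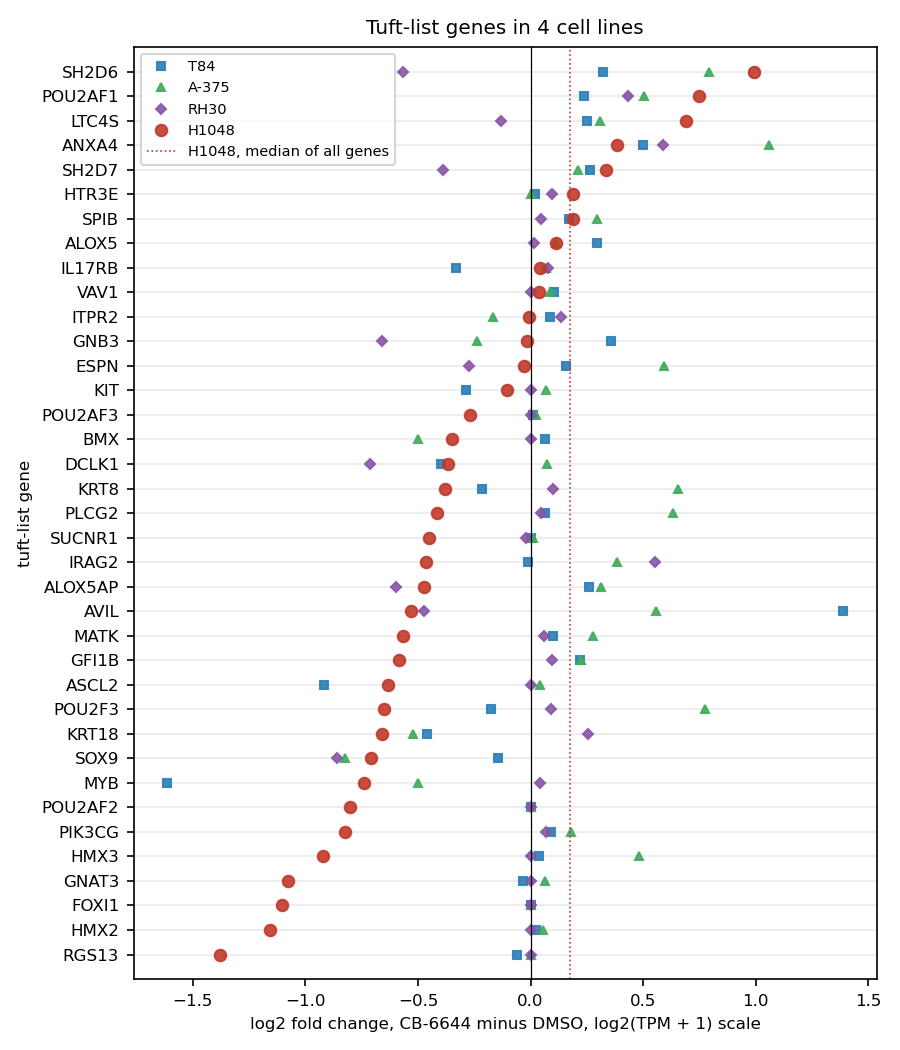
Log2 fold change (CB-6644 minus DMSO) of the tuft-list genes tested in H1048, 1 of the 38 not shown (red circles, sorted) and of the same genes in T84, A-375 and RH30; the dotted line is the median of all genes in H1048, 0.18. Of the H1048 points, 24 mark genes that fell, from KIT at -0.10 down to RGS13 at -1.38, while many points of the other lines sit at or near 0, where the gene was under 1 TPM.

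The other transcription factors reported to bind RUVBL1/2 were MYC, KLF5 and SOX10, besides POU2F3 and MYB above. MYC, the growth factor-responsive regulator, read 51.2, 52.5, 48.6 and 47.98 TPM with DMSO and 29.8, 27.6, 30.5 and 29.3 TPM with CB-6644, -0.75 (SE 0.0439, adjusted p = 1.69e-08). It also fell in the other lines, by 1.06 in T84, 0.88 in A-375 and 1.00 in RH30, and the H1048 effect was the weaker, with a difference of 0.23 (adjusted p = 0.000665). KLF5, which the study followed in pancreatic cells, read 16.6, 19.3, 19.3 and 19.5 TPM with DMSO and 20.2, 18.2, 19.7 and 19.9 TPM with CB-6644 and was not called, at 0.06 on the TPM scale and -0.14 after rescaling, where it was called lower. SOX10 was under 1 TPM. RUVBL1, the target itself, read 155, 154, 149 and 147 TPM with DMSO and 124, 123, 124 and 135 TPM with CB-6644, -0.26 (SE 0.03502, adjusted p = 2.59e-05), and RUVBL2 106, 113, 102 and 97.7 TPM with DMSO and 97.3, 96.2, 106 and 100.1 TPM with CB-6644, -0.07 and not called, though it was called lower after rescaling (-0.28). Neither differed detectably from the other lines in this effect, with differences of -0.002 (adjusted p = 0.97) and 0.01 (adjusted p = 0.877).

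Mesenchymal genes were mostly lower. Of 14 YAP and mesenchymal genes tested, 8 fell and 1 was called higher (24.0% and 53.9% over all genes). The list median was -0.21. The summed level of the list was 946 to 986 TPM with DMSO and 490.4 to 516 with CB-6644, and VIM alone made up most of that drop. VIM, the intermediate filament vimentin, read 552, 578, 587 and 563 TPM with DMSO and 194, 184, 191 and 188 TPM with CB-6644, -1.59 (SE 0.0283, adjusted p = 2.92e-12). ANKRD1, a YAP target, read 24.9, 23.6, 28.3 and 25.2 TPM with DMSO and 5.41, 4.699, 4.16 and 3.58 TPM with CB-6644, -2.29 (SE 0.09505, adjusted p = 1.23e-09), and CCN1, another, fell by 0.49, while CCN2 was not called (-0.07). VIM changed by 0.26 in T84, -0.96 in A-375 and -0.63 in RH30, and the H1048 effect differed by -1.14 (adjusted p = 4.88e-05). In T84 VIM was near the floor, at 0.831 ± 0.777 TPM with DMSO, against DMSO means of 2564 in A-375 and 3662 in RH30. The T84 value therefore has little weight, though it enters the mean of the other lines.

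Of 18 epithelial genes 9 fell and 9 were called higher, 6 on both scales. Over all genes 24.0% fell, 53.9% were called higher and 35.2% rose on both scales. CDH1, E-cadherin, rose from 3.22, 2.95, 2.996 and 2.97 TPM with DMSO to 5.57, 5.54, 5.56 and 5.47 TPM with CB-6644, 0.70 (SE 0.0653, adjusted p = 9.61e-07), and ELF3, an epithelial ETS factor, from 18.5 ± 2.01 to 29.8 ± 1.52. EHF, a second ETS factor, fell from 329, 323, 351 and 347 TPM to 197, 204, 197 and 199.8 TPM, -0.76 (SE 0.0318, adjusted p = 1.35e-09), and the keratin KRT7 by 0.58. Of the 6 neuroendocrine markers tested, 3 fell and 1 was called higher. NKX2-1, a lung lineage factor, read 14.4, 14.04, 12.9 and 16.5 TPM with DMSO and 9.38, 8.38, 9.37 and 7.85 TPM with CB-6644 (-0.67), INSM1 went from 1.89 ± 0.259 to 0.952 ± 0.0809, and UCHL1, called higher by 0.16, did not hold after rescaling.

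Of 17 receptor tyrosine kinases and adaptors tested, 8 were called higher, 6 on both scales, and 4 fell, shares close to those over all genes (35.2% higher on both scales and 24.0% lower). FGFR3, a fibroblast growth factor receptor, read 16.4, 16.4, 17.1 and 17.7 TPM with DMSO and 59.8, 62.8, 68.3 and 61.8 TPM with CB-6644, 1.84 (SE 0.0474, adjusted p = 3.68e-11), and RET, the GDNF receptor, 15.9, 15.3, 13.6 and 14.7 TPM with DMSO and 38.8, 37.3, 38.5 and 36.5 TPM with CB-6644, 1.29 (SE 0.05004, adjusted p = 6.84e-10). MET, the hepatocyte growth factor receptor, fell from 59, 59.2, 60.6 and 60.9 TPM to 25.1, 26.2, 28.3 and 24.8 TPM, -1.17 (SE 0.0434, adjusted p = 5.11e-10), and EGFR from 108 ± 4.11 to 81.5 ± 0.815 (-0.41). None of the 4 overlapped. MET was expressed in the other lines, at DMSO means of 156 TPM in T84, 84.3 in A-375 and 89.7 in RH30, and changed there by 0.22 in T84, 0.24 in A-375 and 0.19 in RH30, a difference of -1.39 (adjusted p = 7.77e-18). RET had means under 1 TPM in both groups of each other line, so its difference of 1.23 (adjusted p = 1.03e-16) is nearly the H1048 effect alone. FGFR3 rose in the other lines as well, by 0.61 in T84, 2.74 in A-375 and 0.84 in RH30.

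**Figure D4:**
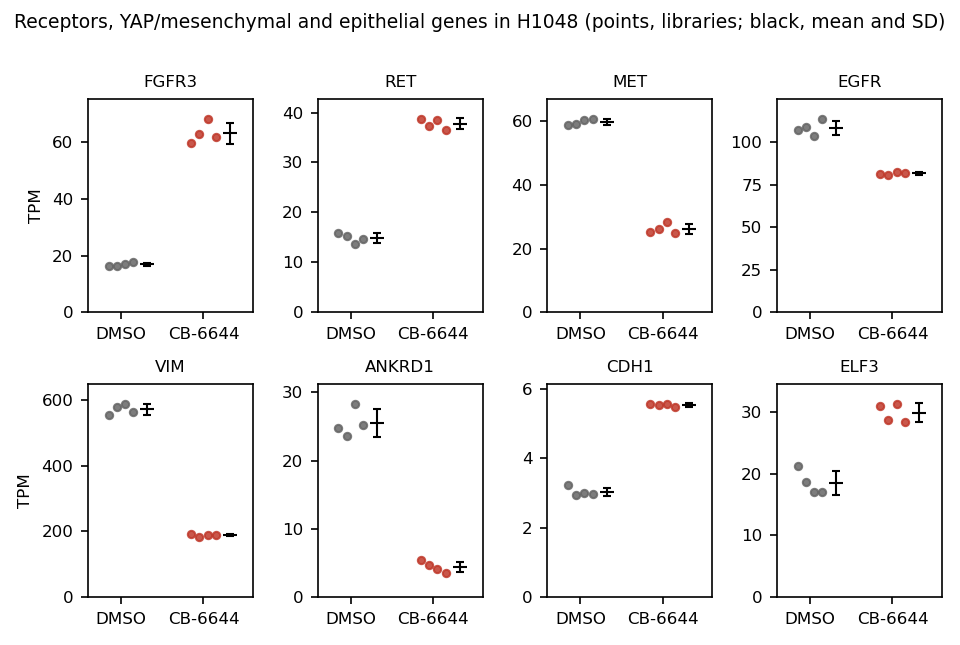
TPM per library in H1048 of 4 receptor tyrosine kinases (upper row) and of 2 YAP or mesenchymal and 2 epithelial genes (lower row), 4 DMSO libraries in grey and 4 CB-6644 libraries in red, with mean and SD in black and axes from 0. FGFR3, RET, CDH1 and ELF3 are higher and MET, EGFR, VIM and ANKRD1 lower with CB-6644, without overlap in any panel.

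Several of the largest rises were seen in all 4 lines. HIST2H4A, which encodes histone H4, rose from 4.49, 4.68, 4.38 and 7.98 TPM to 64.96, 66.05, 72.95 and 67.1 TPM, 3.46 (SE 0.134, adjusted p = 6.81e-10). Its copy HIST2H4B had the same values in each library, as did HIST2H3C and HIST2H3A (3.04) and HIST2H2AA3 and HIST2H2AA4 (2.49), so each pair counts as 1 measurement that cannot be divided between the copies. Messages of these clustered histone genes usually lack a poly-A tail, and the libraries were made from poly-A RNA. LOC112268238 (3.31) and APOLD1, an early response gene of endothelium (2.78), also rose. For HIST2H4A, HIST2H3C, HIST2H2AA3, LOC112268238 and APOLD1 no difference between H1048 and the other lines was shown, with adjusted p-values of 0.354, 0.179, 0.65, 0.13 and 0.991.

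Of the other large rises, ALB, the liver protein albumin, read 0.906, 0.718, 0.5299 and 0.646 TPM with DMSO and 10.9, 8.34, 8.86 and 9.67 TPM with CB-6644, 2.62 (SE 0.0987, adjusted p = 5.73e-10), so that every DMSO library was under 1 TPM and every CB-6644 library above 5 TPM. ALB changed by 0.80 in T84, 1.46 in A-375 and 0.11 in RH30, from 0.02095 to 0.783 TPM in T84 and from 0.0208 to 1.82 TPM in A-375. HAP1, a huntingtin-associated transport protein, read 4.29 ± 0.267 and 29.5 ± 0.553 TPM (2.53), and changed by 1.42 in T84, 3.25 in A-375 and 0.04 in RH30, more in A-375 than in H1048. MYH15, a myosin heavy chain, read 2.29, 2.29, 2.19 and 2.21 TPM with DMSO and 16.7, 17.6, 17.4 and 17.3 TPM with CB-6644, 2.49 (SE 0.0558, adjusted p = 1.34e-11). MYH15 had the largest positive difference from the other lines, 2.56 (adjusted p = 3.98e-22), against effects of -0.40 in T84, 0.16 in A-375 and 0.05 in RH30. MROH6 (2.06, adjusted p = 3.96e-16), the germ cell RNA-binding gene RBM46 (2.04, adjusted p = 5.42e-17), cardiac troponin T gene TNNT2 (1.85, adjusted p = 5.95e-15), ALB (1.83, adjusted p = 1.63e-16) and a row named III, which matches no gene symbol (1.84, adjusted p = 7.21e-14), followed. TNNT2 changed by 2.21 in H1048, from 2.77 to 16.4 TPM, and by 1.79 in T84, from 0.722 to 5.05 TPM. Its changes were -0.29 in A-375 and -0.43 in RH30. The differences between lines are on the log2(TPM + 1) scale, which understates changes of low genes. As a ratio of means ALB rose no less in T84 and A-375 than in H1048, and TNNT2 no less in T84.

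Among the 12 largest falls were 2 subunits of the TIP60 complex. KAT5, the acetyltransferase TIP60, read 48.6, 52, 48.9 and 47.6 TPM with DMSO and 9.42, 8.14, 8.68 and 8.27 TPM with CB-6644, -2.39 (SE 0.0519, adjusted p = 1.08e-11). ING3, a reader subunit of the same complex, read 32.8, 33.6, 37.5 and 36.1 TPM with DMSO and 10.6, 8.25, 8.59 and 7.197 TPM with CB-6644, -1.91 (SE 0.0898, adjusted p = 3.15e-09). KAT5 changed by -1.61 in T84, -1.88 in A-375 and -1.90 in RH30 and ING3 by -1.51 in T84, -1.98 in A-375 and -1.68 in RH30, so both fell in all 4 lines; the KAT5 effect was larger in H1048 (-0.59, adjusted p = 4.65e-06), and for ING3 no difference was shown (-0.18, adjusted p = 0.14). SARS2, the mitochondrial seryl-tRNA synthetase (28.2 ± 1.17 to 4.59 ± 0.342 TPM), UTP18 of the small-subunit processome (78.1 ± 0.815 to 17.4 ± 0.809), RRM2 of ribonucleotide reductase (152 ± 5.02 to 36.2 ± 0.553), THOC6 of the mRNA export complex THO (30.2 ± 1.94 to 7.14 ± 0.736), the RNA-binding protein HNRNPDL (204 ± 4.25 to 52.9 ± 1.01) and the mitochondrial ribosomal protein MRPL54 (72.2 ± 5.197 to 19.1 ± 2.74) fell in each of the 4 lines too.

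Of the remaining large falls, ANKRD1, described above, changed by -0.22 in T84, -2.79 in A-375 and -1.04 in RH30, from DMSO means of 0.542, 14.3 and 163.9 TPM, and the H1048 effect differed by -0.94 (adjusted p = 2.46e-08) from the mean of these. KRT28, a hair follicle keratin, read 17.1, 17.1, 20.7 and 18.5 TPM with DMSO and 3.46, 2.44, 2.34 and 3.07 TPM with CB-6644, -2.34 (SE 0.09904, adjusted p = 1.4e-09), and was under 1 TPM in the other 3 lines, so its difference of -2.34 (adjusted p = 3.39e-20) is the H1048 effect alone. KRTAP3-1, a keratin-associated hair protein, read 30.7, 33.3, 32.9 and 37.2 TPM with DMSO and 3.505, 5.88, 3.59 and 4.89 TPM with CB-6644, -2.68 (SE 0.121, adjusted p = 2.26e-09), and also changed in T84 (-1.69), with a difference of -2.12 (adjusted p = 1.02e-14). DHRS2, a short-chain dehydrogenase, went from 299.5, 302, 303 and 319 TPM to 65.7, 67.9, 68.3 and 68.8 TPM, -2.16 (SE 0.0299, adjusted p = 7.21e-13), against -0.36 in T84, -0.85 in A-375 and -0.94 in RH30, a difference of -1.44 (adjusted p = 5.31e-11).

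The 6 largest negative differences from the other lines were those of KRT28, KRTAP3-1, GPR85, LMO3, RGS21 and GDF15. RGS21, a small regulator of G protein signalling that is known from taste cells, read 109.5, 106, 118 and 121 TPM with DMSO and 32.6, 33.1, 27.99 and 31.1 TPM with CB-6644, -1.83 (SE 0.0562, adjusted p = 1.22e-10), a difference of -1.85 (adjusted p = 3.39e-20). GPR85, an orphan receptor, went from 21.01 ± 0.7997 to 5.399 ± 0.352 TPM, a difference of -2.14 (adjusted p = 4.62e-16), and LMO3, a LIM-domain cofactor, from 45.3 ± 3.29 to 13.2 ± 0.357, a difference of -1.91 (adjusted p = 6.41e-19). RGS21 and LMO3 were under 1 TPM in the DMSO libraries of the other lines. GDF15, a stress cytokine, fell by 0.51 in H1048 and changed by -0.46 in T84, 3.57 in A-375 and 0.70 in RH30, so the line difference of -1.77 (adjusted p = 5.22e-17) came mostly from A-375, where the mean went from 7.47 to 99.5 TPM.

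Genes of the RUVBL1/2 complexes were examined as lists, beside 24.0% lower, 53.9% called higher and 35.2% higher on both scales over all genes. The list for INO80, SRCAP and TIP60 held 32 genes, subunits and the histone variants H2AZ1 and H2AZ2. Of these 32 genes 18 fell and 8 were called higher, 2 of them on both scales, with a median of -0.12. ZNHIT1 of SRCAP and EP400 of TIP60 were the largest rises, 0.48 and 0.35. Of 11 R2TP genes 5 fell, led by the prefoldin-like UXT (-0.67) and PFDN2 (-0.60), and 3 were called higher, led by PDRG1 (71.1 ± 5.19 to 130.1 ± 4.43 TPM) and DNAAF10 (0.39). None of the 9 PIKK and TTT genes fell and 7 were called higher, 2 on both scales, which were the kinase SMG1 (0.42) and the assembly factor TELO2 (20.1 ± 1.304 to 37.7 ± 2.33 TPM, 0.87).

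POLR2A, the largest subunit of RNA polymerase II, read 121, 130.3, 112 and 119 TPM with DMSO and 397, 403, 418 and 398 TPM with CB-6644, 1.74 (SE 0.0416, adjusted p = 2.32e-11). It rose by 1.84 in T84, 1.93 in A-375 and 1.59 in RH30, and a difference of H1048 was not shown (-0.05, adjusted p = 0.558). Its list held 16 genes, POLR2A to POLR2L and the factors RPAP1, RPAP2, GPN1 and GPN3, which are not subunits. Of these 16 genes 13 were called higher and 7 rose on both scales, against 53.9% and 35.2% over all genes. POLR2L was next (0.81), and POLR2I (-0.25) and POLR2H (-0.07) fell. Of 10 nonsense-mediated decay factors and the GADD45A and GADD45B genes, 12 in all, 11 were called higher, 9 on both scales, led by GADD45B (1.67), whose message that pathway degrades, and the helicase UPF1 (0.66), while SMG9 fell (-0.73). The 6 snoRNA host genes of this list had no value and were not analysed here.

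Mitotic genes were mostly lower. Of 34 mitosis and G2/M genes 28 fell (24.0% over all genes) and none rose on both scales, with a median of -0.29. The H1048 effect was below that of the other lines for 21 of the 34, against 24.2% of all genes. CDC20, an activator of the anaphase-promoting complex, read 303, 308, 295 and 286 TPM with DMSO and 136, 129.9, 142 and 139.6 TPM with CB-6644, -1.12 (SE 0.0342, adjusted p = 1.22e-10), and the mitotic kinase PLK1 141, 141, 138 and 132 TPM with DMSO and 63.7, 64.4, 66.4 and 63.6 TPM with CB-6644, -1.09 (SE 0.0316, adjusted p = 8.88e-11). BIRC5 (0.14) and HMMR (0.12) were called higher on the TPM scale alone. Neither CDC20 (0.03, adjusted p = 0.663) nor PLK1 (0.08, adjusted p = 0.206) differed detectably from the other lines.

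Of 44 DNA replication genes, 26 were called higher, 15 on both scales, and 12 fell, close to the shares over all genes (35.2% higher on both scales and 24.0% lower), with a median of 0.18 that is the median of all genes. GINS4 of the replicative helicase went from 31.1 ± 0.465 to 65.8 ± 0.538 TPM, whereas RRM2 (-2.04) and the polymerase subunit POLD1 (-0.73) fell. Of 41 MYC family and ribosome biogenesis genes 28 fell and 3 rose on both scales, with a median of -0.30. NPM3, a nucleolar chaperone, had the largest fall (-0.77), ahead of MYC, and the snoRNP core proteins NOP56 (0.47) and NOP58 (0.40) rose, and NOP56, which changed by -0.03 in T84, 0.11 in A-375 and -0.29 in RH30, differed by 0.54 (adjusted p = 2.73e-15).

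Stress genes gave single large rises in lists of mixed direction. Of 25 p53 targets 13 were called higher, 8 on both scales, and 6 fell, with a median of 0.17, again close to all genes (35.2% and 24.0%). CDKN1A, the cell cycle inhibitor p21, read 58.8, 56.2, 51.2 and 57.2 TPM with DMSO and 172, 165, 174 and 169.8 TPM with CB-6644, 1.59 (SE 0.0412, adjusted p = 3.68e-11), and FDXR rose by 0.69. PLK2 (-0.81) and CCNG1 (-0.51) fell. The median of the same list was 1.28 in A-375. The H1048 effect was below that of the other lines for 16 of the 25 genes, against 24.2% of all genes.

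Of 19 integrated stress response genes 9 fell and 7 were called higher, 2 on both scales, which were ATF3 (38.7 ± 1.25 to 98.1 ± 3.399 TPM, 1.32 (SE 0.0369, adjusted p = 6.73e-11)) and DDIT3 (0.41). DDIT4 (-0.66) and CEBPB (-0.62) led the falls. Over all genes 24.0% fell and 35.2% rose on both scales. Of 14 unfolded protein response genes 8 were called higher, 6 on both scales, with CRELD2 (0.68) and SYVN1 (0.59) first. In this list 3 fell, among them the chaperone CALR (-0.56) and XBP1 (-0.22). These shares are close to those over all genes (53.9% called higher, 35.2% on both scales and 24.0% lower). Only 4 of 15 heat shock genes had a row of their own, and of these HSP90AB1 (-0.60), HSP90AA1 (-0.22) and 1 more fell while BAG3 rose (0.51). Among 14 BCL2 family genes 8 were called higher, 5 on both scales, led by PMAIP1, the BH3-only protein NOXA (34.9, 36.04, 42.2 and 40.2 TPM with DMSO, 93.2, 101, 89.04 and 99.5 TPM with CB-6644, 1.3 (SE 0.0613, adjusted p = 3.15e-09)), and BIK (0.59), and BCL2L1 fell (-0.21). The shares called higher are close to those over all genes (53.9%, and 35.2% on both scales).

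**Figure D5:**
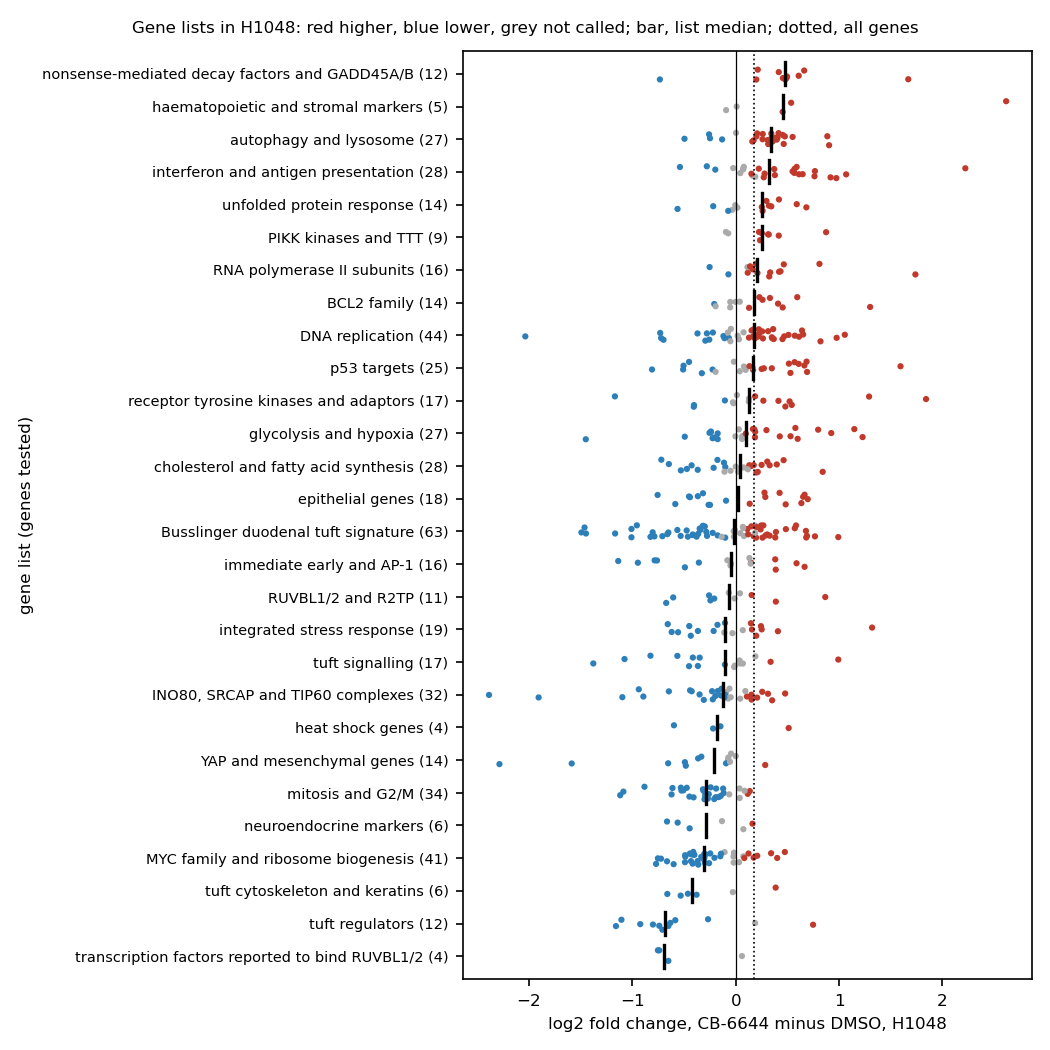
Log2 fold change (CB-6644 minus DMSO) in H1048 of the genes of each list with 4 or more genes tested, 1 point a gene, red for called higher, blue for called lower and grey for not called, with the list median as a black bar and the median of all genes, 0.18, dotted. The factors reported to bind RUVBL1/2 (-0.70) and the tuft regulators (-0.68) have the lowest medians, and the decay factors with GADD45A and GADD45B the highest (0.48).

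Lysosomal and interferon lists sat above the median of all genes. Over all genes 53.9% were called higher, 35.2% rose on both scales and 24.0% fell. Of 27 autophagy and lysosome genes 22 were called higher, 16 on both scales, with a median of 0.34, and the sialidase NEU1 (0.90) and the protease CTSB (0.89) rose most. GABARAPL1 and WIPI1 fell (-0.26 and -0.50), and GABARAPL1 differed from the other lines, where it changed by 1.34 in T84, 0.63 in A-375 and 0.89 in RH30 (-1.21, adjusted p = 6.13e-16). Of 28 interferon and antigen presentation genes 18 were called higher, 14 on both scales, and 3 fell. IFI27 read 1.37, 2.22, 2.68 and 0.921 TPM with DMSO and 9.52, 11.1, 15.6 and 11.1 TPM with CB-6644, 2.22 (SE 0.191, adjusted p = 4.45e-07), the factor IRF1 rose by 1.07, and IFI44 (-0.54) and IFI35 (-0.28) fell.

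Of 27 glycolysis and hypoxia genes 14 were called higher, 9 on both scales, and 9 fell (35.2% and 24.0% over all genes). HK2, hexokinase 2, fell from 22.4 ± 0.691 to 7.56 ± 0.554 TPM (-1.45) and LDHA by 0.49, whereas NDRG1 (1.23) and the aldolase ALDOC (1.15) rose. Of 28 cholesterol and fatty acid genes 11 were called higher and 10 fell. On both scales 4 rose, a smaller share than the 35.2% over all genes. SC5D (0.84) and STARD4 (0.46) were at one end and FADS1 (-0.72) and SREBF1 (-0.65) at the other. Of 16 immediate early and AP-1 genes 6 fell, led by JUND (65.8 ± 3.27 to 29.5 ± 2.81 TPM, -1.14) and EGR1 (-0.95), and 5 were called higher, 4 on both scales, with IER2 (0.67) and FOS (0.59) first. Of the lists for other cell types, the melanoma list had 3 genes tested with PMEL called higher on the TPM scale alone (0.33), the colorectal list 1, CDX2 (-0.18, groups overlapping), the muscle list 2, with MYL4 higher (0.95), and the haematopoietic and stromal list 5, with ALB and PTPRC (0.54, groups overlapping) among 3 called higher.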

How the data were processed

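Poly-A RNA of H1048 was sequenced single-end by the authors, who used kallisto with hg38, dropped transcripts of low abundance (limit not given in the sources used here) and deposited gene-level TPM made with tximport. The study's own test ran on counts, and the deposited unit is TPM, so limma 3.58.1 (R 4.3.3) was run here on log2(TPM + 1) (empirical Bayes, trend), for genes whose mean reached 1 TPM. Fold changes on this scale understate those of low genes. Gene names in the table were taken as given: 18600 match a current symbol, 733 an older one and 542 none (2.08% of H1048 TPM), and rows that pool several genes under 1 name were not used in lists. Of 653 list genes 611 had a value; none of the 13 mitochondrially encoded transcripts had one. Named genes were all tuft-list members and RUVBL1/2-binding factors, the 12 largest rises and falls (mean of at least 5 TPM, groups apart), the 2 largest each way in each other list, and the 6 largest line differences each way; CCN1 and CCN2 were added after their values were seen, and some genes that these rules name are not reported here. The members and lists were chosen with earlier results of these data known. Alternatives were median-of-ratios scaling, 0.1 as pseudocount, a filter at a mean of 5 TPM or none, a replicate block, all 32 libraries together and leaving out each library. Code was tested on simulated data.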

Additional observations from a re-analysis of the deposited data

Results flagged for a closer look

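In 8 of 148 groups of 4 libraries, over the 74 genes named by the rules, 1 library stood far from the other 3; chance gives about 1 in 20. With DMSO these were the highest library of HIST2H4A and HIST2H4B, which have the same values (7.98 TPM, the lowest being 4.38), and the lowest of HAP1 (3.89 TPM), POU2AF1 (1.72 TPM) and KLF5 (16.6 TPM). With CB-6644 they were the lowest of THOC6 (6.05 TPM) and the highest of BMX (25.7 TPM) and RUVBL1 (134.6 TPM). These 8 genes stayed on the same side of the threshold without any single library.

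The effect of CB-6644 on 12 genes differed between H1048 and the mean of T84, A-375 and RH30 by the interaction test of limma. The H1048 log2 fold change was above that mean by 2.56 for MYH15, 2.06 for MROH6, 2.04 for RBM46, 1.85 for TNNT2, 1.84 for the row named III and 1.83 for ALB. It differed by -2.34 for KRT28, -2.14 for GPR85, -2.12 for KRTAP3-1, -1.91 for LMO3, -1.85 for RGS21 and -1.77 for GDF15. All 12 kept the direction and the call under each alternative tried. RBM46 was listed at 0 in all T84 and RH30 libraries, KRT28 and RGS21 were listed at 0 in all A-375 and RH30 libraries, and KRTAP3-1 likewise, so these differences come from H1048 and 1 other line at most. TNNT2 also changed in T84, by 1.79.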

How the results depend on the processing

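Rescaling by the median of ratios moved the counts of direction most: 4834 genes higher and 5469 lower, and 11 signature genes higher. It reversed 4 genes near 0, IL17RB (-0.17), VAV1 (-0.17), ALOX5 (-0.10) and KLF5 (-0.14). With a mean of at least 5 TPM 3 tuft-list genes were higher, since fewer genes are tested. The other counts kept within 1.5 times of their value under every alternative: genes called ranged from 8993 (mean of at least 5 TPM) to 11890 (no filter), and tuft-list genes lower from 23 to 29. Leaving out 1 library gave 10291 to 10534 genes called, 23 to 24 tuft-list genes lower and 5 to 7 higher. Replicate numbers did not pair the samples, since same-numbered libraries had correlations of deviations of -0.0068, -0.0537, -0.1475 and 0.0607; a replicate block gave 10446 genes called and 7223 genes that differ between lines. Fitted with all 32 libraries, ALOX5 and KRT8 lost their calls. The depth behind TPM is unknown, so counting error at low levels cannot be given.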

Other observations

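Families of genes chosen by name after the data were seen are given by counts alone, beside 53.9% higher and 24.0% lower over all genes on the TPM scale. Of 46 clustered histone names (HIST) 29 were called higher and 2 lower, with a median log2 fold change of 0.82, and their summed level was 381 to 412 TPM with DMSO and 858 to 974 with CB-6644. The medians were 1.02 in T84, 1.28 in A-375 and 0.85 in RH30. Of 82 cytoplasmic ribosomal protein genes 63 were lower and 7 higher on the TPM scale, and after rescaling 78 were lower and 0 higher at the adjusted threshold. Of 78 mitochondrial ribosomal protein genes 32 were lower and 23 higher on the TPM scale, with a median of -0.04, and 53 and 10 after rescaling (-0.25). Of 37 proteasome subunits 20 were lower and 4 higher, with a median of -0.09, and 32 and 1 after rescaling (-0.30). Of 37 complex I subunits 22 were higher and 5 lower on the TPM scale, and 8 and 16 after rescaling.

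The direction of change went with the level of a gene. Among 2394 genes with a mean under 5 TPM 59.9% were called higher and 11.2% lower, with a median of 0.40, and among 1878 genes at 100 TPM or more 43.9% and 37.9%, with a median of 0.03. Level here is the mean over both groups. A gene under 1 TPM in 1 group passed the filter only through the other group, so part of the low band was selected for a change. Near 0 the log2(TPM + 1) scale also leaves little room for a fall. Whether level itself goes with direction was not tested. The mean rose past 1 TPM with CB-6644 for 851 genes and fell below it for 113. All 4 DMSO libraries were under 1 TPM and all 4 CB-6644 libraries at 5 TPM or more for 3 names, among them ALB and the readthrough transcript NDUFC2-KCTD14, and no gene did the opposite.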
